A study of Chlamydomonas reinhardtii with 4 samples.

Results

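The array that set RNA of Chlamydomonas reinhardtii starved of nitrogen for 72 h against RNA of the same strain at 0 h was analysed. It is 1 of 4 arrays of the series, and the others carried cells starved for 24, 48 and 96 h. In each array the Cy5 (red) channel held RNA of starved wt cc3491, a wild-type strain, and the Cy3 (green) channel held RNA of wt cc3491 at 0 h. Cells had grown in TAP, an acetate medium with ammonium as the nitrogen source, to early stationary phase. They were then washed and kept in TAP without nitrogen under constant light, so the 0 h cells were stationary-phase cells before the medium change. Biological replicates were pooled before labelling, each time point was 1 array, and the dyes were not swapped. There is therefore no replicate at 72 h, no p-value is given for 72 h against 0 h, and a fixed dye effect of a probe cannot be told apart from a change. Each of 14557 gene models, named here by their model number of the JGI 3.1 annotation, carried 3 probes with different sequences. A probe was used at 72 h when it was well above background in either channel, which kept 24859 of 43671 probes and 11765 models. A model's value is the median over its probes of log2 of Cy5 over Cy3, and a value of 1.0 is a 2-fold higher level at 72 h.

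C. reinhardtii is a unicellular green alga that swims with a pair of flagella. Without nitrogen it stops dividing, takes down parts of its photosynthetic apparatus, stores starch and lipid, and can differentiate into gametes. Ammonium is its preferred nitrogen source. It enters through AMT transporters and is bound into glutamine by glutamine synthetase (GLN), and nitrate reaches the same point through nitrate reductase (NIT1) and nitrite reductase (NII1).

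The 3 probes of a model were the only technical check. Among 4774 models with all 3 probes the median SD of the 3 values was 0.34 on the log2 scale. Probe slots 1 and 2 correlated at r = 0.83 across models, and slot 3 correlated with them at 0.69 and 0.68. The median of all models at 72 h was 0.14, and centring each array on its kept probes moved it to 0.02. The expected ratios of spiked-in control RNAs were recovered with a slope of 0.819 on log scales at 72 h, against 0.848 to 0.919 on the other 3 arrays.

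At 72 h, 1446 of 11765 models were at least 2-fold higher than at 0 h (12.3%) and 1153 were at least 2-fold lower (9.8%). The split was 55.6% higher among models past 2-fold. It was 47.5% after median centring and 35.1% after another background correction (normexp) with loess normalization, which left 415 higher and 768 lower. With probes well above background in both channels, 707 of 9355 models were higher and 1130 lower, so lower models were then the larger group. Of the models past 2-fold with 2 or 3 probes, all probes passed it for 491 of 962 higher models (51.0%) and for 588 of 946 lower models (62.2%). At least 4-fold differences were seen in 259 higher and 392 lower models, and at least 16-fold differences in 27 higher and 38 lower models.

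Genes for nitrogen uptake and assimilation were among the highest at 72 h. Among 2758 models with 3 unsaturated probes above background in both channels, all 3 probes were at least 2-fold higher in 121 and at least 2-fold lower in 310. The highest of these was GLN3, a glutamine synthetase, whose probes read 4.76, 5.83 and 6.42. AMT4, an ammonium transporter, followed with 5.01, 5.70 and 5.72, and model 192854, which has no name in the tables used, with 5.14, 5.31 and 5.89. NAR2, a protein of the nitrate and nitrite transport system, had probe values of 5.09, 5.25 and 6.24. All 12 of these probe values lay above 4.7. AMT1, a further ammonium transporter, was also high but its probes spread more widely, at 3.05, 4.89 and 5.48. The other 5 of the 10 highest were FAS3 (4.71), a fasciclin-like protein, model 196074 (3.92), an AAA-ATPase domain protein, GPD1 (3.82), a glycerol-3-phosphate dehydrogenase, and models 195891 (3.61) and 183011 (3.55).

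The lowest of the models measured by 3 such probes was LHCBM8, a chlorophyll-binding protein of the light-harvesting complex of photosystem II. Its probes read -8.31, -6.12 and -4.72. Model 146308, described as a farnesyl cysteine-carboxyl methyltransferase, had 2 probes at -5.90 and -5.69 and a further one at -1.46, so its probes disagreed by over 16-fold. Models 158519 (-5.67), 151619 (-5.38) and 24453 (-5.14) carry no symbol. The remaining 5 were the phosphate symporter model 183357 (-4.64), for which the tables give the symbols PTA3 and PTB3, model 156833 (-4.36), the histone H2B model HTB10 (-4.31) and models 190034 (-4.22) and 192861 (-4.15).

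**Figure D1:**
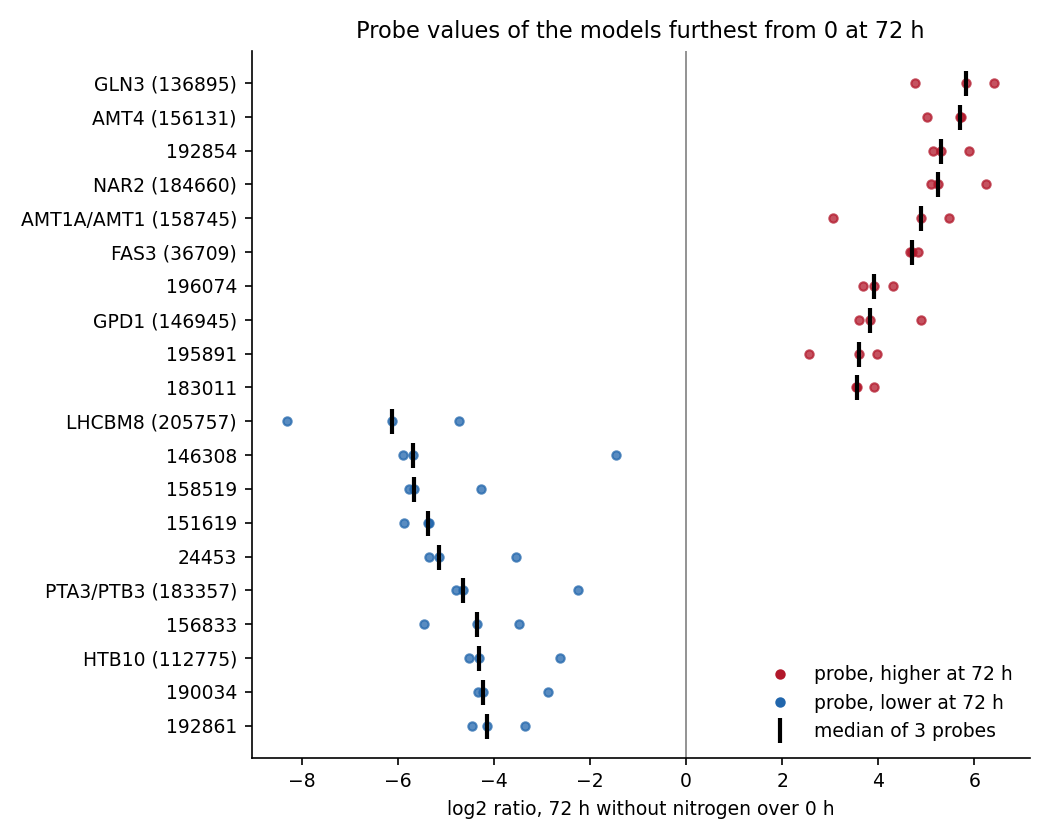
Log2 ratio of 72 h without nitrogen over 0 h for the 10 highest and the 10 lowest models with 3 probes above background in both channels. Each point is a probe and each black mark the median of 3. All probes of GLN3, AMT4, model 192854 and NAR2 lie above 4.7, and the probes of model 146308 range between -5.90 and -1.46.

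Gene lists were drawn up from the symbols and descriptions in the study's tables. These tables hold genes that changed under nutrient starvation, in part on these same arrays. The direction of a list at 72 h is therefore not independent evidence, and neither is its departure. Each count of list members is to be read against the shares over all models, 12.3% at least 2-fold higher and 9.8% lower. Of the 16 models in the nitrogen uptake and assimilation list 15 were measured, 13 were at least 2-fold higher at 72 h and 0 were lower, with a median of 3.57 against 0.14 over all models. After normexp and loess 12 of 15 were higher and the median was 2.06. A nitrate transporter, model 192090, was at 6.05 with probes at 4.54, 6.05 and 6.54. NIT1 was at 4.53 (probes 4.18 and 4.88) and NII1 at 4.16 (probes 4.11 and 4.20). NIT2, the transcription factor that regulates these genes, was at 1.13. The glutamine synthetases differed among themselves. GLN3 stood at 5.83, the model at the GLN4 locus (147468) at 1.79, GLN1 at 0.71 and GLN2 at -0.08 on saturated probes, and the model listed as GLN4 (147483) had no probe above background. The 5 genes used to check the starvation label (GLN3, AMT4, NIT1, NII1 and NAR2) lay between 4.16 and 5.83 at 72 h, and between 2.83 (NIT1) and 5.45 after normexp and loess.

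In the organic nitrogen list AOC5, a cationic amino acid transporter, was at 2.79 and AOT2, an amino acid transporter, at -1.91. Of 5 gamete and mating models 2 were at least 2-fold higher, against 12.3% over all models, and 2 were lower. The higher ones were an Ezy1-like model, with no probe well above background at 0 h (at least 3.01-fold), and MTA4a (1.00) of the mating-type locus. After median centring 1 of the 5 was higher and after normexp and loess 0, with the Ezy1-like model at 0.71 and MTA4a at 0.81. The lower ones were the metalloproteinase MMP3 (-1.23) and model 143696 (-2.63), which carries the symbol HAP2 but is described as a vanadium haloperoxidase.

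Photosynthesis genes lay below 0 h, except for a few stress-related light-harvesting proteins. All 4 photosystem I antenna models were at least 2-fold lower (median -1.85), as were 4 of 5 photosystem II antenna models (median -2.82) and 8 of 8 models of the photosystem cores, electron transport and ATP synthase (median -1.53), against 9.8% over all models. Of the 3 probes of each photosystem I antenna model 2 were saturated, and leaving out saturated spots put that median at -2.40. Saturation also touched the other 2 lists, with 3 saturated probes each in model 184397 (LHCB5 or LHCBM3) and PSAH. There were 2 each in LHCBM7, PSAO and FNR1. LHCBM7 set the photosystem II antenna median and was at -1.46 after normexp and loess, which put that median at -2.5. Beside LHCBM8, LHCBM4 was at -4.76, whereas LHCBM9 was at -0.01 on 1 probe whose 0 h signal was not clear of background. The lowest of the core models was PSBX (-2.44), a small photosystem II subunit. The LHC and LHCSR genes are families of similar sequence, and cross-hybridization between their members was not tested. LHCSR3, which serves to dissipate excess light energy as heat, was at 4.58 and LHCSR2 at 3.73, and the related LHCSR1 was at -2.96 with probes at -3.68, -2.96 and -1.42. In chlorophyll metabolism 1 of 5 models was lower and 0 were higher (median -0.07). In plastid translation 2 of 7 were lower, the RNA-binding proteins CSP41a (-2.68) and CSP41b (-1.73).

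Of 27 histone models, nearly all of them H2B genes, 19 were at least 2-fold lower, against 9.8% over all models, and 0 higher (median -1.09), with values between -4.31 and -0.39. H2B genes are nearly identical copies whose probes can share signal, so the values of single members are uncertain. Among 6 cell cycle models, the Aurora-like kinase ALK2 (-2.36, 1 probe) and SMC5B (-1.72), a chromosome maintenance protein, were lower and 4 were within 2-fold. Of 8 cell wall models 5 were lower. HRP3, a hydroxyproline-rich protein, was at -4.71 and VSP3, an extracellular matrix protein, at -4.66, while FAS3 and the pherophorin PHC13 (1.19) were higher.

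In the phosphate list 3 of 5 models were higher, against 12.3% over all models, and 1 was lower. The sodium/phosphate symporters were at 4.38 (PTB5, model 196438, probes 0.38, 4.38 and 6.11), 4.0 (model 196465, listed as PTB3 and PTB5) and 2.38 (PTB2). The sulphur list stayed close to those shares. It had 1 of 14 measured models higher, the arylsulfatase ARS2, on 1 probe not well above background at 0 h (0.22 after normexp and loess), and 2 lower, ARS5 (-1.61) and the ATP-sulfurylase ATS2 (-1.25). In the low-CO2 list 4 of 9 models were higher, among them CCP1 (3.99), a chloroplast envelope protein, NAR1.2 (3.57), an anion transporter that is also in the nitrogen list, and HLA3 (2.91, probes 0.54, 2.91 and 4.63). In each of these 3 models 1 of 3 probes was well above background at 0 h, and normexp and loess put CCP1 at 1.84, NAR1.2 at 2.06 and HLA3 at 1.51. The regulator LCR1 was at 1.90 and the carbonic anhydrase CAH1 at -1.12 (-0.38 after normexp and loess).

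Among 11 models of acetate and central carbon metabolism 2 were higher, model 182461 (3.90), with the symbols GGH1 and GLD2, and the glucose-6-phosphate dehydrogenase GLD2 (2.16). Transketolase TRK1 (-1.95) and phosphoribulokinase PRK1 (-1.55) of the Calvin cycle were lower. Isocitrate lyase ICL1 was at -0.17, but 2 of its 3 probes were saturated at 72 h, so a change could be hidden. In glycerolipid synthesis 2 of 5 were higher, GPD1 and a predicted lipase (model 191373, 2.65). In the chaperone and oxidative stress list 2 of 10 were higher, with the glutathione S-transferase GSTS1 at 2.02, and 3 were lower. One of these, the methionine sulfoxide reductase MSRA2, was measured on 1 probe, which was not well above background at 72 h, and was at -1.34 after normexp and loess. The short remaining lists held COX16 of mitochondrial respiration (2.85, or 1.05 after normexp and loess), the zinc transporter ZRT5 of metal uptake (-2.98, or -1.25), the ubiquitin-conjugating enzyme UBC3 (-1.23, or -0.79), and GBS2 (-0.73) and MEX1 (-0.20) of starch metabolism.

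**Figure D2:**
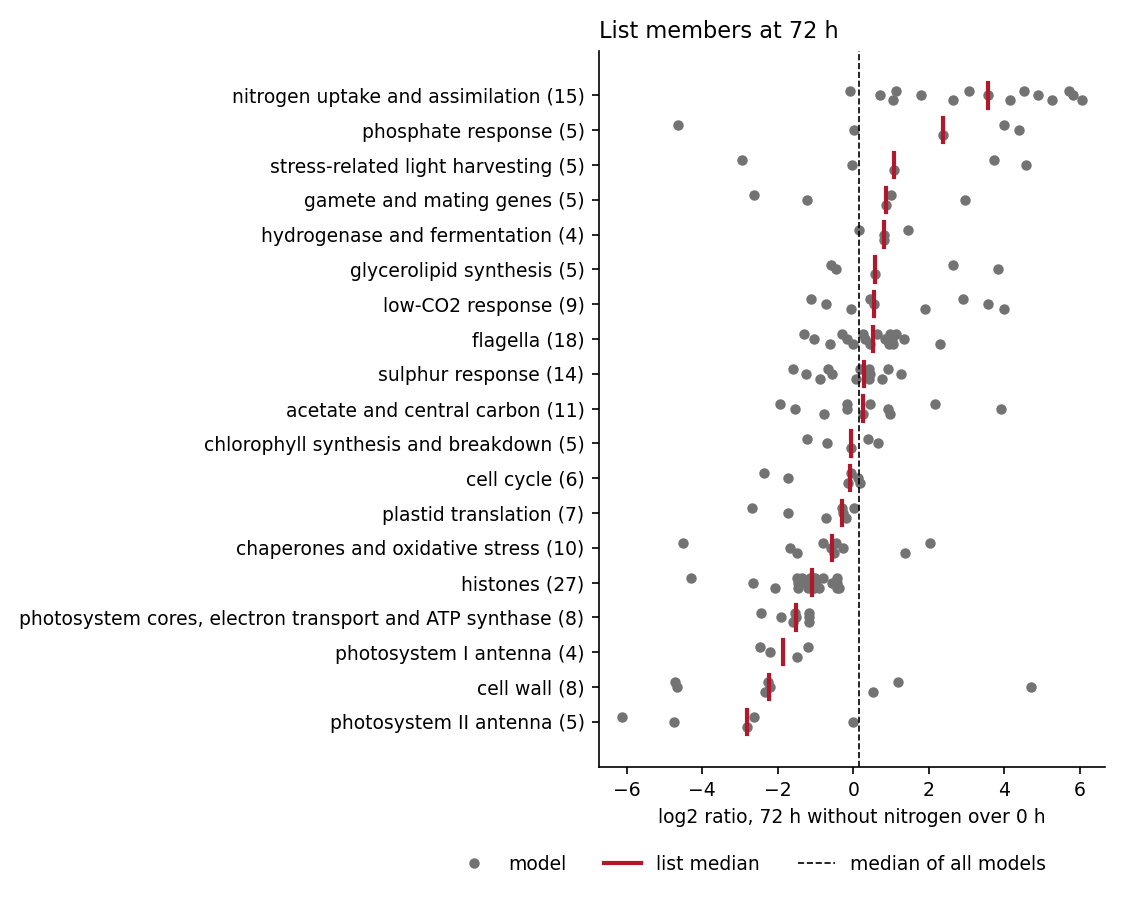
Log2 ratio of 72 h without nitrogen over 0 h for the members of the lists with at least 4 measured models (number in brackets). Points are models, red bars list medians, and the dashed line the median of all models (0.14). The nitrogen list has the highest median (3.57) and the photosystem II antenna list the lowest (-2.82).

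Some transcripts were above background in only 1 of the 2 channels, which gives a lower bound. In 786 models no probe was well above background at 0 h and at least 2 probes were at 72 h. The bounds set the brighter channel's processed signal against the higher of the dim channel's own signal and the lowest signal called well above background, 89.7 units in Cy3 and 38.5 in Cy5. Model 195673 was at least 15.3-fold higher at 72 h, with a signal of 1370 units at 72 h and 53.7 at 0 h, and models 146216 and 186833 were at least 7.78-fold and 7.06-fold higher. For models 178410 and 195537 the bounds were 4.73 and 4.36, and a bound could be set for 228 of the 786. In the opposite case there were 16 models. Over all probes, 24652 were well above background in Cy5 and 18582 in Cy3 on this array. The counts of 786 and 16 are therefore not on an equal footing, and the part of the channels in them was not tested. Model 157675 was at least 22.3-fold lower at 72 h, with 34.0 units at 72 h and 1180 at 0 h, and models 186626, 189582, 148338 and 142653 at least 8.19-fold, 7.94-fold, 6.53-fold and 6.33-fold lower. With dyes not swapped these bounds are open to dye bias.

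The next question was where the 72 h array departed from the arrays on either side of it. The departure is the log2 value at 72 h minus the mean of the values at 48 and 96 h, over probes above background on all 3 arrays. The 0 h RNA enters each ratio and its level cancels in the departure. Departures were available for 11036 models, with a median of -0.05 and an SD of 0.55 across models. The difference between the 48 h and 96 h arrays had an SD of 0.57 across models. It sets single arrays against each other, not an array against a mean, so these SDs are not directly comparable. The 3 probes of a model had a median SD of 0.18 in the departure.

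At 72 h, 468 of 11036 models stood at least 2-fold above the mean of 48 and 96 h (4.24%) and 293 at least 2-fold below it (2.65%). Of the 468 above, 463 were above both neighbouring arrays, 349 were above each by at least 2-fold, and 447 were above all 3 other arrays. Their median value was -0.80 at 24 h, -0.84 at 48 h, 0.66 at 72 h and -0.88 at 96 h. The 293 below had medians of 0.36, 0.74, -0.58 and 0.76 in the same order, and 268 were below all 3 other arrays. All probes departed by at least 2-fold for 212 of 342 models above with 2 or 3 probes (62.0%), and for 90 of 189 below (47.6%).

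None of these departures passed the test across models. With Benjamini-Hochberg adjustment over all models, limma called 0 above (0%) and 0 below (0%), and the lowest adjusted p was 0.216. After normexp and loess it called 37 above and 5 below, and with all 4 arrays and a linear time term 200 above and 60 below. At an unadjusted p under 0.05 there were 577 models above and 392 below, 8.78% of all tested. The fit had 1 residual degree of freedom per model, and its only error was the difference between the 48 h and 96 h arrays. The 10 spiked-in control probes all departed upward, by 0.26 to 0.80 with a median of 0.57, and 0 of them passed 2-fold. Their part in the counts was not tested. With models ranked by signal into 4 equal groups, the share at least 2-fold above was 6.20% in the brightest group and 3.41% in the dimmest. Across 16 blocks of array positions the median departure of single probes lay between -0.12 and 0.00, and between 6.58% and 10.8% of probes passed 2-fold.

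**Figure D3:**
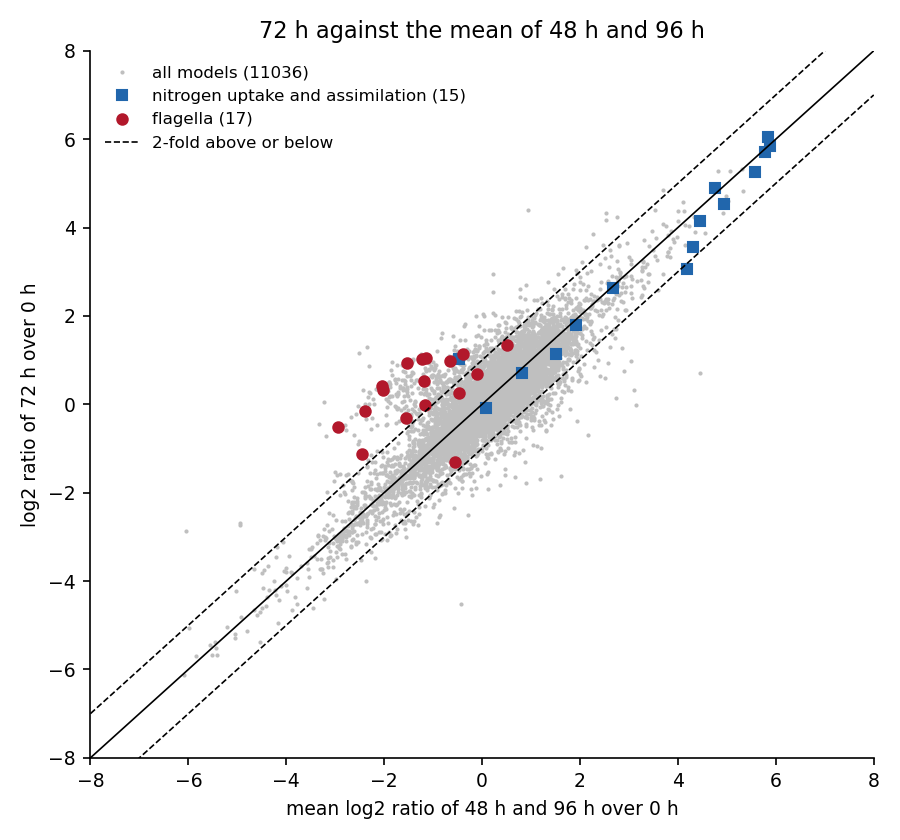
Log2 ratio of 72 h over 0 h (vertical) against the mean log2 ratio of 48 and 96 h over 0 h (horizontal) for 11036 models, with models of the flagella list in red and of the nitrogen list in blue. Dashed lines mark 2-fold. Of 17 flagellar models 13 lie above the upper line, and 13 of 15 nitrogen models lie between the lines.

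Flagellar genes were the list with the largest share of departing models. The members were named from the study's tables of genes that changed under starvation, so low values at 24, 48 and 96 h could have been selected. The share of departing members and their low values on the other arrays are therefore not independent evidence. Of 17 flagellar models with a departure 13 were at least 2-fold above the mean of 48 and 96 h and 0 were below, a share of 76.5% against 4.24% over all models. Their median departure was 1.63, against -0.05 over all models. Against 0 h itself, the list at 72 h had 5 of 18 measured models at least 2-fold higher, 2 lower and a median of 0.53. No member passed the test: their adjusted p in limma lay between 0.216 and 0.758. On the median, the list was at -1.06 at 24 h, -1.30 at 48 h, 0.42 at 72 h and -1.09 at 96 h. At 24, 48 and 96 h alike 15 of the 17 were below 0 h, and 14 had their highest value of the 4 arrays at 72 h. The shares of all models with these patterns were not worked out, so these counts have no background to be read against. Outside this list 9 of 259 models with a symbol were at least 2-fold above (3.47%) and 13 were below (5.02%).

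Most of these models encode flagellar associated proteins (FAP), which are known from isolated flagella. FAP7 was at -2.05, -2.18, 0.32 and -1.88 at 24, 48, 72 and 96 h, and its 3 probes departed by 2.29, 2.38 and 2.38. The departure of the model was 2.35 ± 0.30 (SE from limma), a 5.09-fold higher level at 72 h than at 48 and 96 h. In the Cy5 channel alone its processed signal was 34900 units at 72 h, against 5620 at 48 h and 8090 at 96 h. FAP7 at 72 h was thus within 2-fold of its 0 h level and below it by about 4-fold on the other arrays.

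FAP12 had the same shape at a higher signal. Its values were -1.62, -2.24, -0.16 and -2.55 over the 4 times, with probe departures of 2.20, 2.23 and 2.61. Its Cy5 signal was 170000 units at 72 h, where 2 of its 3 probes were saturated, against 37800 at 48 h and 32000 at 96 h. FAP71 (-1.99, -1.56, 0.94 and -1.50) departed by 2.41 and 2.54 on its 2 probes. FAP110 (-1.46, -1.31, 1.05 and -0.99) departed by 1.74, 2.20 and 2.27 on its 3 probes. FAP138 (-3.11, -3.15, -0.52 and -2.73) departed by 1.83 and 3.00. All of these probes departed by more than 1.7 on the log2 scale.

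Other members agreed less well between probes or rested on a single probe. FAP75 was at -1.06, -1.37, 1.03 and -1.09, but of its probes 2 departed by 2.29 and 2.36 and 1 by 0.03. FAP152 (departure 2.47) and PF16 (1.72), a protein of the central pair of microtubules, were each measured on 1 probe common to the 3 arrays. The Cy5 signals of these probes at 48 and 96 h were 38.0 and 54.4 units for FAP152 and 73.1 and 49.0 for PF16, and the departures fell under 2-fold after normexp and loess (0.83 and 0.57). TUB2, a beta-tubulin and a building block of the flagellar axoneme as well as of the cell's other microtubules, was at -0.28, -0.85, -0.31 and -2.24. Its departure of 1.24 ± 0.64 was larger against 96 h than against 48 h, and its 3 probes were saturated at 72 h. FAP260, FAP98, FAP276 and FAP275 departed by 1.53, 1.63, 1.33 and 1.15, and by 1.08, 0.63, 0.20 and 0.71 after normexp and loess. FAP151 (0.83), FAP198 (0.79) and FAP26 (0.74) stayed under 2-fold. Model 134171, with the symbol CDC48 but described as a flagellar associated protein, was placed in the cell cycle list and departed by 0.16.

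A single member went the other way. FA1, which is needed for the shedding of flagella, was at 0.17, -0.15, -1.31 and -0.94, with probe departures of -0.79, -0.77 and -0.75. FAP139 was at least 2.23-fold higher at 72 h, with no probe well above background at 0 h, but had no probe in use on all 3 arrays, and FAP199 had none at 72 h. Among the 13 models above 11 had at least 2 probes, and in 9 of these every probe passed 2-fold. At 72 h itself 9 of the 13 were within 2-fold of 0 h and 3 were at least 2-fold higher.

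The size of the flagellar departure depended on the normalization, and its direction did not. With normexp and loess 8 of 17 stood at least 2-fold above and 0 below, with a median departure of 0.92. Against 48 h alone 11 of 17 passed 2-fold, and against 96 h alone 14 did.

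**Figure D4:**
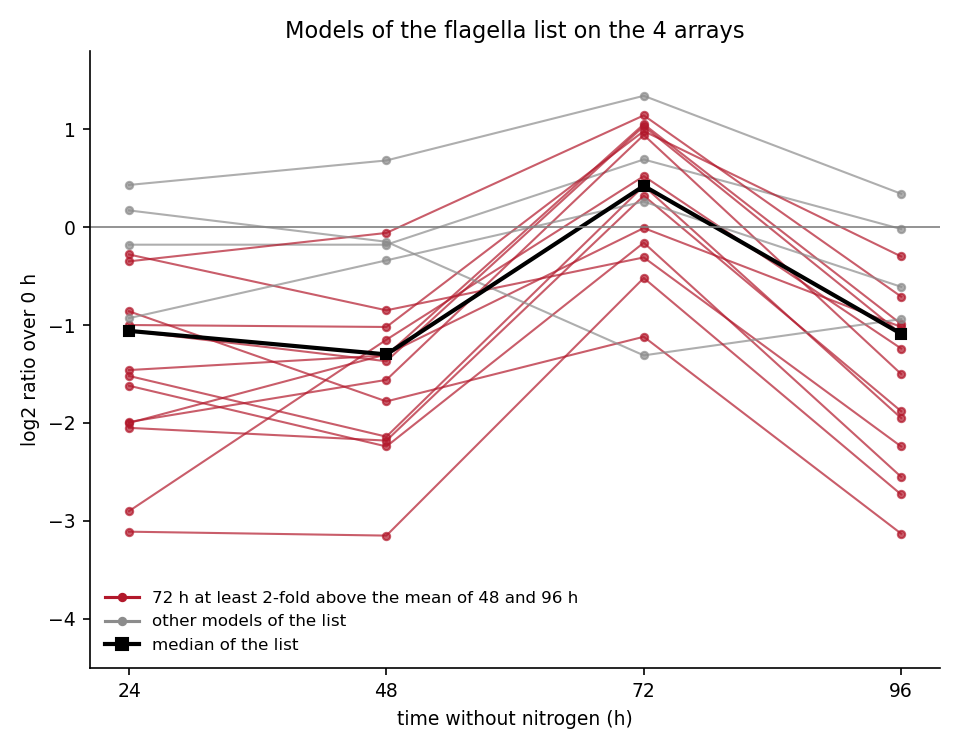
Log2 ratio over 0 h of the 17 models of the flagella list with a departure, against time without nitrogen. Red lines are the 13 models at least 2-fold above the mean of 48 and 96 h, grey lines the other 4, and the black line the list median, which is at -1.06, -1.30, 0.42 and -1.09 at 24, 48, 72 and 96 h.

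Since the Cy3 channel held the same 0 h RNA on every array, each departure was split into its channels after centring each channel. Among the 468 models above, the median departure was 1.35 in Cy5 (starved RNA) and -0.05 in Cy3 (0 h RNA). In 337 of them the Cy5 signal was at least 2-fold higher on the 72 h array, and in 65 the Cy3 signal was at least 2-fold lower. Among the 293 below, the medians were -1.10 in Cy5 and 0.02 in Cy3, with 176 at least 2-fold lower in Cy5 and 51 at least 2-fold higher in Cy3. All 13 flagellar models above had a Cy5 departure of at least 2-fold. Over all 17 flagellar models with a departure the medians were 1.54 in Cy5 and -0.01 in Cy3.

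The Cy5 signals of the 72 h array differed from the mean of the other 3 arrays with an SD of 0.60 over 15634 probes. The same figure was 0.63 for 24 h, 0.36 for 48 h and 0.56 for 96 h. In the Cy3 channel all 4 arrays lay between 0.15 and 0.17. Over all 11036 models with a departure, dim ones included, the SD of the channel departures was larger in Cy3, at 0.34, against 0.52 in Cy5.

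**Figure D5:**
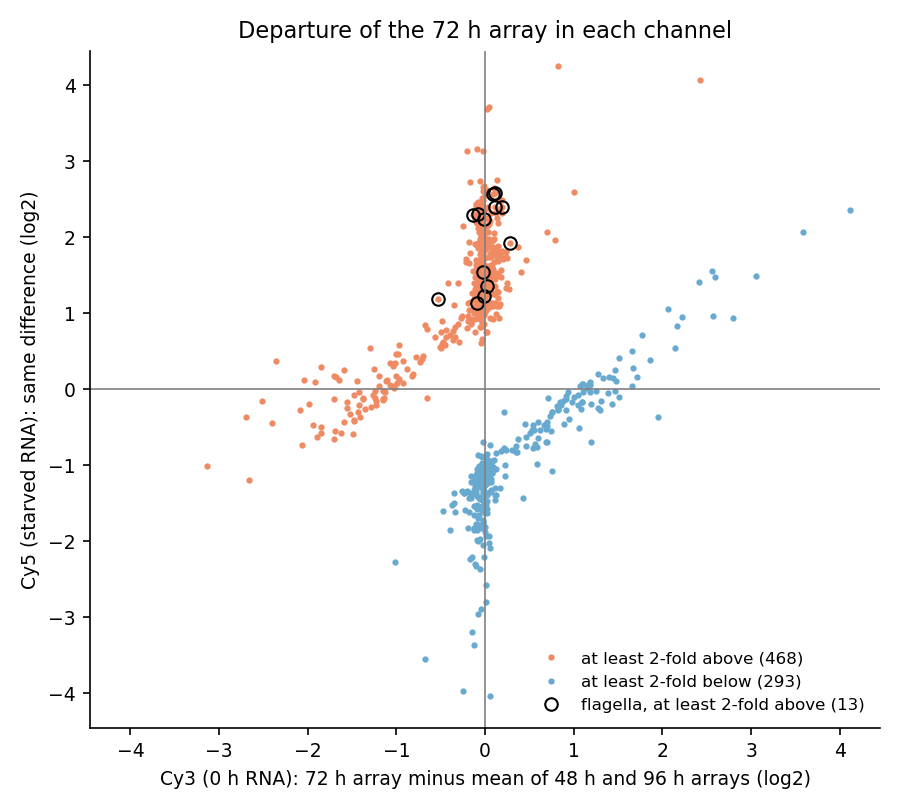
Difference of the 72 h array from the mean of the 48 and 96 h arrays in log2 signal, for Cy5 (starved RNA, vertical) and Cy3 (0 h RNA, horizontal), over the 468 models at least 2-fold above and the 293 below. Open circles are the 13 flagellar models, most of them near the vertical axis, with PF16 at 1.19 in Cy5 and -0.54 in Cy3. The arms that run to the left and to the right are models whose difference is in the 0 h channel.

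Most of the models with the largest departures have no name in the tables used. In 4239 models with 3 probes on all 3 arrays, all 3 departed by at least 2-fold upward in 122 and downward in 43. Model 182106 was the largest of these, at -2.16, -2.23, 1.3 and -2.48 over 24, 48, 72 and 96 h. Its probes departed by 2.49, 3.66 and 4.12 (3.66 ± 0.29 for the model, SE from limma; adjusted p = 0.216; 2.09 after normexp and loess), and it lay entirely in Cy5 (3.71, against 0.04 in Cy3). Model 195673 at locus CHLRE_16g668850v5, the model with the largest bound above, was not well above background at 0 h on any of its probes, so its ratios are not exact. Its Cy5 signal was 1370 units at 72 h, against 49.3 at 48 h and 83.4 at 96 h, and it departed by 3.45 (2.06 after normexp and loess). Model 186495 at CHLRE_02g079450v5 was far below 0 h on every array (-5.78, -5.94, -2.87 and -6.17) and departed by 3.18.

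The other 7 of the 10 largest had 1 shape. Models 24358, 190810, 146275, 193450, 128114, 187818 and 196397 were each between -2.45 and -1.39 at 24, 48 and 96 h, and between 0.28 and 0.96 at 72 h. They departed by 3.18, 2.80, 2.75, 2.63, 2.59, 2.55 and 2.52. Their Cy3 departures lay between -0.09 and 0.02. The tables used do not name these 7 models.

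Of the models below, 151803 at CHLRE_04g211750v5 had the largest departure among those with 3 probes past 2-fold. It was at 2.92, 3.27, -0.02 and 3.03 over the 4 times, so it was about 8-fold above 0 h on the other arrays and level with 0 h at 72 h. Its probes departed by -3.17, -3.04 and -3.02, in Cy5 (-3.19) and not in Cy3 (-0.15). Model 193610 followed with 1.81, 2.46, 0.32 and 3.74 (departure -2.78; Cy5 -3.54, Cy3 -0.67). The remaining 8, models 206206, 146077, 187951, 205748, 205947, 184506, 196803 and 185298, departed by -2.17 to -1.73, with 187951 at -0.80 after normexp and loess. Of these, 206206, 146077, 205748 and 184506 were above 0 h on the other 3 arrays and below it at 72 h.

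Model 206001 was singled out after its values had been seen. The tables list it as LHCA1, a symbol they also give to model 184471. It was at 2.28, 2.85, 0.72 and 6.04, with probe departures of -3.82 and -3.63, and its Cy5 signal was 638 units at 72 h, against 2180 at 48 h and 41700 at 96 h. The 4 photosystem I antenna models lay between -3.34 and -1.19 on all 4 arrays.

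The nitrogen list barely departed at 72 h. After normexp and loess 1 of 15 stood at least 2-fold above and 2 below, with a median departure of -0.19. Without that change 1 of 15 was at least 2-fold above and 1 below. The median departure was then -0.13, and 3 of the 15 departures were above 0. GLN3 was at 6.10, 5.98, 5.83 and 5.79 over the 4 times and AMT4 at 6.0, 5.85, 5.70 and 5.71. The exceptions were NAR1.3, a formate/nitrite transporter (-0.22, -0.48, 1.04 and -0.46; departure 1.5, with probes at -0.13, 1.53 and 1.76), and the nitrate reductase model 188890 (4.0, 3.90, 3.07 and 4.49; departure -1.12).

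The hydrogenase and fermentation list, which covers hydrogen production and fermentation enzymes, had 2 of 4 models above, against 4.24% over all models. After normexp and loess 1 of 4 was above, with HYDA2 at 1.5 and ACK1 at 0.95. HYDA2, an iron hydrogenase, was at -0.86, -0.63, 1.46 and -0.26, with probe departures of 1.5, 1.6 and 1.91. ACK1, acetate kinase, was at -0.66, -0.73, 0.81 and -0.36, with probe departures of 1.2 and 1.51. The alcohol dehydrogenase ADH1 departed by 0.28 and the assembly protein HYDEF by -0.06. Model 183963, measured on 2 probes, named as HYDA1 only in a table whose identifiers do not match its names and singled out after its values were seen, was at -2.47, -3.06, -1.54 and -2.96.

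In the phosphate list 2 of 5 models were above, against 4.24% over all models. PTB2 was at -0.63, 1.22, 2.38 and 0.52 (probe departures 1.46, 1.5 and 1.90), and model 196465 at -0.10, 1.41, 3.85 and 3.13, with a departure of 1.58 (Cy5 2.59, Cy3 1.01). The 4 photosystem I antenna models all had their highest value at 72 h, a pattern whose share over all models was not worked out. Their departures were 0.41 to 0.84, all under 2-fold. After normexp and loess 1 of the 4 passed it. LHCA7, for example, was at -1.37, -2.28, -1.19 and -1.78. Among the stress-related proteins ELI3, an early light-inducible protein, departed by 1.03 (0.91 after normexp and loess) and LHCSR1 by -1.11. LHCSR1 was at -0.91, -0.89, -2.96 and -2.81, so its departure was set by the 48 h array.

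Downward departures in the other lists were few. In electron transport FNR1, ferredoxin-NADP reductase (-1.13, -0.33, -1.16 and 0.12), and PSBP2 (-0.29, 0.15, -1.55 and -0.67) departed by -1.05 and -1.28, and by -0.89 and -0.80 after normexp and loess. The amino acid transporter AOT2 was at 0.64, 0.04, -1.91 and -0.48, with probe departures of -1.74, -1.61 and -1.37. MSRA2 was below both neighbouring arrays on its 1 probe, with a departure of -1.07 after normexp and loess and a Cy5 signal at 72 h that was not well above background. SLT1, a sodium/sulphate transporter, departed by -1.25, with a value of 2.76 at 96 h, and ZRT5 departed by -1.10 with probes at -1.33, -1.10 and 0.07 (-0.40 after normexp and loess). CCP1 departed by 1.79 on 1 probe, and this lay in the 0 h channel (Cy3 -1.98, Cy5 -0.19). With normexp and loess its departure was 0.77. PHC13 departed by 1.03 (0.95 with normexp and loess), with a value of -1.08 at 96 h. In the histone list 0 of 27 models departed by 2-fold, with departures of -0.20 to 0.32. A departure of 2-fold was also met by 0 models in the gamete, chlorophyll, cell cycle, central carbon, glycerolipid, plastid translation, mitochondrial, starch, proteasome and photosystem II antenna lists.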

How the data were processed

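Per the file headers, the deposited files are output of Agilent Feature Extraction 10.7.3.1. They hold processed intensity values of both channels, which the scanner software had corrected for background with a spatial detrend and scaled between dyes (linear and lowess), with surrogates for spots near background, and median spot and background intensity values without correction. The authors' series table holds log10 ratios of the same spots. The further lowess step in the study's methods was not used here.

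Values are log2 of processed Cy5 over processed Cy3. Departures were tested with limma 3.58.1 (lmFit and eBayes, two-sided, R 4.3.3) on the 48, 72 and 96 h arrays and called at a Benjamini-Hochberg adjusted p under 0.05 and at least 2-fold. The fit has 1 residual degree of freedom and assumes that the lone 72 h array varies as the other 2 do. The script was tested on simulated data. All 4 arrays lay on 1 slide, and their number limits the precision.

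Models were named from the study's tables by model number. In the table captioned for sulphur starvation 79 of 263 numbered rows did not match their identifier, so symbols found only there were not used, except some that the study's text names, and 66 listed members were dropped. Of 14557 models 12302 matched a locus of the RefSeq assembly Chlamydomonas_reinhardtii_v5.5, used for locus names only. The 24 lists cover 186 models. Named models are the 10 highest and 10 lowest with 3 unsaturated probes above background in both channels and past 2-fold, the 10 largest departures each way with 3 probes past 2-fold, the 5 largest bounds each way, list members with extreme or disagreeing values, and further list members to describe a list. The members, lists and tests were chosen with earlier results of these data known.

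Alternatives were normexp background correction (offset 50, on median intensities) with loess (span 0.3, 4 iterations), median centring, other probe filters and summaries, other reference arrays, other limma designs, Holm adjustment, and, added after seeing the data, the deposited log10 ratios.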

Additional observations from a re-analysis of the deposited data

Results flagged for a closer look

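In 2 models the 72 h value was at least 2-fold on one side of 0 h and the values at 48 and 96 h were both at least 2-fold on the other side. Model 182106 was at 1.3 at 72 h, against -2.23 at 48 h and -2.48 at 96 h, a departure of 3.66. FAP75 (model 142494) was at 1.03 at 72 h, against -1.37 at 48 h and -1.09 at 96 h, a departure of 2.26, with 1 of its 3 probes departing by only 0.03. Each time point was a single array, and neither difference passed limma's test across models (adjusted p = 0.216 for both). After normexp and loess the 72 h values were 0.88 and 0.76, so neither passed 2-fold at 72 h.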

How the results depend on the processing

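The normalization and the probe filter moved the counts most. With normexp and loess 415 models were at least 2-fold higher and 768 lower at 72 h, 253 stood above and 105 below the mean of 48 and 96 h, 8 flagellar models stood above, and limma called 37 above and 5 below. Requiring signal in both channels left 707 higher and 1130 lower models at 72 h, 192 models below the mean of 48 and 96 h, and a median Cy5 departure of 1.59. With 3 kept probes only, which tests fewer models, 589 were higher, 655 lower, 211 above and 109 below, 7 of 10 flagellar models stood above, and the median Cy5 departure was 1.54. Without a background filter limma called 101 above and 19 below, and with all 4 arrays and a linear time term 200 above and 60 below. Against 48 h alone 523 models stood below and against 96 h alone 450. The cause was not tested. The other alternatives kept each count within 1.5 times its value, and limma called 0 models under all of them, Holm adjustment and 4 arrays without a trend included. Normexp and loess gave no channel values. Of 413 values of single models and lists under the alternatives, 357 moved by less than the spread of the 3 probes, 56 moved more and 0 reversed. With normexp and loess 22 of 121 named values at 72 h and 13 of 49 named departures past 2-fold fell under it, and with median centring 5 and 0. With 1 array per group no replicate could be left out. No paired analysis was possible because each time point has 1 array.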
